A study of Mus musculus with 8 samples.

Results

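The genes described here are the cytochrome P450 genes of families 1 to 4, taken as every row of the deposited lung table whose symbol starts with Cyp, a family number from 1 to 4 and a letter, without the pseudogene mark -ps. There were 77 such genes among 25965 in the table, of which 3 belong to family 1, 48 to family 2, 9 to family 3 and 17 to family 4, and 2 pseudogene rows were left out. The table holds RNA-seq of whole lung RNA from Wfdc2 +/+ mice and from Wfdc2 GFP/GFP mice at E18.5, before birth, and at P1.5, after birth, with 2 libraries from separate animals in each of 4 groups. In Wfdc2 GFP/GFP mice a GFP cassette stands in place of part of the first exon and the whole second exon of Wfdc2 on both alleles, so these mice lack the WFDC2 protease inhibitor and die as neonates. The line was derived from targeted TT2 embryonic stem cells, and no group received a treatment.

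Cytochrome P450 enzymes are heme proteins of the endoplasmic reticulum that insert oxygen into their substrates with electrons passed on by P450 reductase. Families 1 to 3 act mainly on foreign compounds, steroids and fatty acids, and family 4 mainly hydroxylates fatty acids and eicosanoids. Most members are best known from liver, whereas a smaller set is used in lung, led by Cyp2f2 of the club cells, the secretory cells of the airway that bioactivate naphthalene.

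Levels are given as RPKM, the reads of a gene per kilobase of its whole span, introns included, scaled to the library total, or as the log2 of that value. Sums over several genes are given as RPM, reads scaled to the library total without division by length. Library totals ran from 19457647 to 37209333 reads, and a detection limit of 3 reads equals 0.0806 to 0.154 RPM, a limit that covers counting error only. Wfdc2 itself had 8038 to 32845 reads in the +/+ libraries and 0 to 12 in the GFP/GFP libraries. Replicate 1 of E18.5 GFP/GFP stood apart, with a sum of 853 RPM over 6 club cell markers against 2805 to 3578 in the other E18.5 libraries. It was also lower in alveolar type II (9252 RPM against 18580 to 23380), alveolar type I (1029 against 2719 to 3203) and ciliated cell markers (161 against 199.5 to 247.5). Its fibroblast markers were higher, at 4310 RPM against 2901 to 3493. Replicate 2 of P1.5 +/+ had a sum of 98.4 RPM over 6 hepatocyte markers against 1.51 to 8.84 elsewhere. The 2 P1.5 +/+ libraries also differed from each other in fibroblast markers, which summed to 809 and 4591 RPM. Other sums that differed between replicates 1 and 2 of that group were club cell (21890 and 9320 RPM) and alveolar type II markers (56550 and 29390). Ciliated cell (859.8 and 319.4) and neutrophil markers (1808 and 554.9) differed too. In whole lung RNA, fewer cells of a type and less RNA per cell cannot be told apart. Replicate 1 of every group had 4121 to 90980 reads of Xist and replicate 2 had 1 to 13. Ddx3y of the Y chromosome had 0 to 3 reads in replicate 1 and 972 to 2175 in replicate 2, so the replicate number coincided with sex, female in replicate 1 and male in replicate 2, in every group.

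Of the 77 members, 17 averaged 0.05 RPKM or more in these libraries and were tested, or 22.1%, against 60.2% of all genes. A further 5 members averaged 10 reads or more but lay under that level, and the other 55 were low-read genes with a mean under 10 reads. Family 1 had 2 of its 3 genes tested, family 2 had 8 of 48, family 3 had 1 of 9 and family 4 had 6 of 17. Among P450 genes of the other families in the table, 8 of 18 were tested.

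The promoters of 5 members are shown, namely Cyp2f2, the 3 members that passed a test (Cyp2b10, Cyp2e1 and Cyp1b1) and Cyp1a1, the member with the widest range of levels. They are the 120 bases before the start site in RefSeq (GRCm38.p6, the build called mm10), 5′ to 3′ on the strand of the gene. Cyp2f2 is shown from chr7:27119835-27119954 (plus strand), Cyp1a1 from chr9:57697493-57697612 (plus), Cyp1b1 from chr17:79715062-79715181 (minus), Cyp2b10 from chr7:25897538-25897657 (plus) and Cyp2e1 from chr7:140763699-140763818 (plus). Capitals mark 3 motifs on either strand. They are the TATA box with the letters TATAAA, the CCAAT box, and the core sequence that the aryl hydrocarbon receptor binds, GCGTG. The start site in the deposited table lies 46 bases upstream of the one used here for Cyp2f2, 38 for Cyp2b10 and 80 for Cyp2e1, and 20 bases downstream for Cyp1b1.
Cyp2f2: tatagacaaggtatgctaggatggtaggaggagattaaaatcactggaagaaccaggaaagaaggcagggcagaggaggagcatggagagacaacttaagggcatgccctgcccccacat
Cyp1a1: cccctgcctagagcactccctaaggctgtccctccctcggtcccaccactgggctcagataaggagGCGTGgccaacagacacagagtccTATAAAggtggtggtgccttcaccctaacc
Cyp1b1: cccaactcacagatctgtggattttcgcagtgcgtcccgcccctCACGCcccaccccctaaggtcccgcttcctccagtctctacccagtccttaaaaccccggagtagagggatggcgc
Cyp2b10: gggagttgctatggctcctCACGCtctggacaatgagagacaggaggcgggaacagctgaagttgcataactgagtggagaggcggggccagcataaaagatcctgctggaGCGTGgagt
Cyp2e1: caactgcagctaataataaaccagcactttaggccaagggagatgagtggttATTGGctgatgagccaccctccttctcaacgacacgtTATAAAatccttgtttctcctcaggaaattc
Over the 300 bases around the start that RefSeq lists as the promoter, GCGTG occurred in 32.4% of 32851 mouse promoters. It occurred in 15 of 70 promoters of 63 members. Of the 15 tested members with an entry, 7 had it, Cyp1a1, Cyp1b1 and Cyp2b10 among them. TATAAA occurred in 13.6% of all promoters, in 29 of 70 promoters of 63 members and in 2 of the 15 tested members, Cyp1a1 and Cyp2e1. CCAAT occurred in 37.4% of all promoters, in 33 of the 70 and in 9 of the 15. The FOXA-type letters TGTTTAC occurred in 3.65% of all promoters, in 10 of the 70 and in none of the 15. None of these letters was found in the Cyp2f2 window. A match of letters is a description and not a binding site.

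Cyp2f2 (chr7:27119909-27133660, plus strand) was by far the most abundant member. Its RPKM was 16.6 and 21.6 in the E18.5 +/+ libraries, 6.89 and 14.8 in E18.5 GFP/GFP, 25.5 and 39.7 in P1.5 +/+, and 16.6 and 18.4 in P1.5 GFP/GFP. It gave between 32.4% and 60.5% of all reads of the 77 members in a library, with the lowest share in replicate 1 of E18.5 GFP/GFP. Both GFP/GFP libraries lay below both +/+ libraries at each stage.

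The next members by level were Cyp2s1, Cyp4b1 and Cyp2d22. Cyp2s1, an epithelial P450 that acts on lipid peroxides and retinoids, had 2.71 and 3.18 RPKM in E18.5 +/+, 2.23 and 3.29 in E18.5 GFP/GFP, 9.85 and 5.41 in P1.5 +/+, and 3.86 and 2.999 in P1.5 GFP/GFP. Cyp4b1, a lung-rich enzyme that activates furans and aromatic amines, had 1.58 and 1.71 RPKM in E18.5 +/+, 1.12 and 2.23 in E18.5 GFP/GFP, 3.28 and 4.60 in P1.5 +/+, and 2.08 and 2.34 in P1.5 GFP/GFP. In both genes the P1.5 +/+ libraries were the highest of the 8. Cyp2d22, a drug-metabolizing enzyme of the Cyp2d group, had 0.991 and 1.40 RPKM in E18.5 +/+, 2.22 and 2.66 in E18.5 GFP/GFP, 4.80 and 2.87 in P1.5 +/+, and 1.33 and 1.98 in P1.5 GFP/GFP. Its GFP/GFP libraries were above the +/+ libraries at E18.5 and below them at P1.5.

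The order of levels depended on the length used. Per kilobase of exon instead of span, Cyp2f2 stayed first with a mean of 136 on this scale, Cyp4b1 moved from place 3 to 2 with 24.1, Cyp2s1 from 2 to 3 with 12.3, Cyp4v3 from 10 to 4 with 7.04, and Cyp1b1 from 8 to 16 with 0.794. Mean RPKM over the 8 libraries was 20.02 for Cyp2f2, 4.19 for Cyp2s1, 2.37 for Cyp4b1 and 2.28 for Cyp2d22. The ranges of the last 2 over libraries overlapped, and so did those of Cyp4f16 (mean 1.03 RPKM) and Cyp4f13 (0.975 RPKM).

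**Figure D1:**
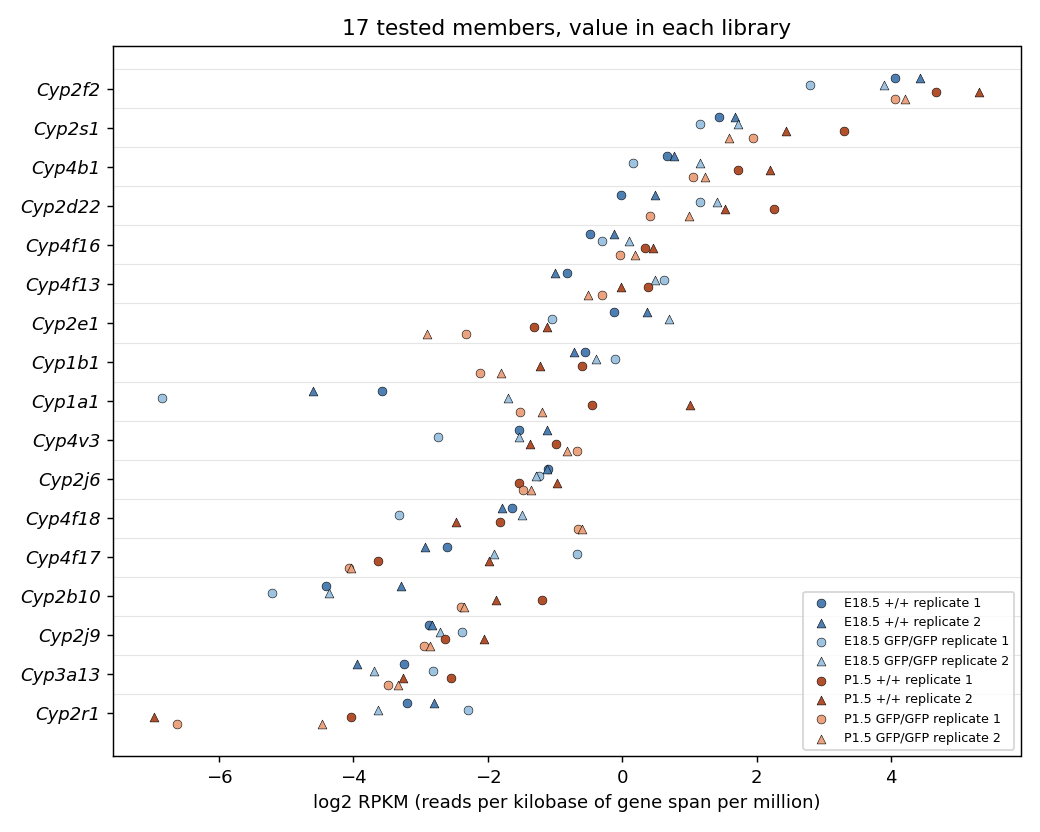
Each of the 17 tested members in each of the 8 libraries, on the log2 RPKM scale, with genes ordered by mean RPKM, colours for groups and circles and triangles for replicates 1 and 2. Cyp2f2 lies above every other member in each library, and Cyp1a1 and Cyp2r1 have the widest spread.

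The first comparison asked how the members changed from E18.5 to P1.5. Over both genotypes, Cyp2b10 rose and Cyp2e1 fell in limma's moderated test, 2 of 17 members, where 5.14% of the 15627 genes tested passed. Cyp1a1 had the largest log2 difference of the 17 but stood just outside the threshold, and passed it under some alternatives.

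Cyp2b10, the mouse enzyme induced through the receptor CAR, had 47 and 92 reads in E18.5 +/+, 29 and 41 in E18.5 GFP/GFP, 275 and 153 in P1.5 +/+, and 127 and 165 in P1.5 GFP/GFP. In RPKM, all 4 P1.5 libraries were above all 4 E18.5 libraries. The log2 difference was 2.36 (SE 0.40, limma adjusted p = 0.0290), a 5.14-fold rise. Of the 36-base words in its transcripts, 15.7% also occur in another gene, most often Cyp2b13, so some of its reads may be shared. In 5 of the 8 fits that leave out 1 library (both E18.5 +/+ libraries, replicate 1 of E18.5 GFP/GFP and both P1.5 GFP/GFP libraries) its adjusted p was 0.0723 to 0.133.

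Cyp2e1, which oxidizes ethanol and small solvents, had 354 and 453 reads in E18.5 +/+, 203 and 532 in E18.5 GFP/GFP, 98 and 101 in P1.5 +/+, and 52 and 44 in P1.5 GFP/GFP. Every P1.5 library was below every E18.5 library in RPKM. The log2 difference was -1.89 (SE 0.41, limma adjusted p = 0.0457), a 3.70-fold fall. The call was lost with the replicate number, here also sex, as a block (log2 difference -1.89, adjusted p = 0.0616), with median centring (log2 difference -1.42, adjusted p = 0.0695), and in 6 of the 8 fits that leave out 1 library, all but those without replicate 2 of E18.5 GFP/GFP or replicate 2 of P1.5 +/+, with an adjusted p of 0.05004 to 0.158.

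Cyp1a1, the prototype target of the aryl hydrocarbon receptor, had 18 and 8 reads in E18.5 +/+, 2 and 56 in E18.5 GFP/GFP, 99 and 243 in P1.5 +/+, and 50 and 79 in P1.5 GFP/GFP. The P1.5 libraries lay above the E18.5 libraries in RPKM without overlap, and the 2 E18.5 GFP/GFP libraries were the lowest and the highest of that stage. The log2 difference was 3.64 (SE 1.01, limma adjusted p = 0.0600). It passed with a pseudocount of 0.1 (adjusted p = 0.0428), a filter of 10 mean reads (0.0424), median centring (0.0481) and quantile normalization (0.0488). Without replicate 2 of E18.5 GFP/GFP the log2 difference was 4.93 (adjusted p = 0.0162), and without replicate 1 of that group it was 2.35 (adjusted p = 0.106). Its close relative Cyp1a2 had 0 to 2 reads in every library.

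Cyp1b1, the family 1 enzyme of mesenchymal cells, had 190 and 153 reads in E18.5 +/+, 279 and 181 in E18.5 GFP/GFP, 116 and 67 in P1.5 +/+, and 43 and 68 in P1.5 GFP/GFP. Within GFP/GFP it fell by 1.71 on the log2 scale (SE 0.38, limma adjusted p = 0.04997, just under the threshold), the only 1 of 17 members to pass there, where 4.55% of all genes passed. Just outside the threshold in the same limma test were Cyp2b10 (log2 difference 2.41, adjusted p = 0.0514), Cyp4f17 (-2.76, adjusted p = 0.0526) and Cyp2e1 (-2.44, adjusted p = 0.0532). Within +/+ the log2 difference of Cyp1b1 was -0.28 (SE 0.38, limma adjusted p = 0.695). The test of the difference between these 2 stage changes of Cyp1b1 gave a log2 value of -1.43 (SE 0.54, limma adjusted p = 0.422). The call within GFP/GFP was lost in 15 of 21 alternatives, among them the replicate block (log2 difference -1.71, adjusted p = 0.0696), median centring (log2 difference -1.04, adjusted p = 0.134) and the fits without either E18.5 +/+ library, either P1.5 GFP/GFP library or replicate 1 of E18.5 GFP/GFP (adjusted p = 0.112 to 0.244). Summed fibroblast markers were 2901 to 4310 RPM in E18.5 GFP/GFP and 907 to 1306 in P1.5 GFP/GFP. In +/+ they were 3141 and 3493 RPM at E18.5 and 809 and 4591 at P1.5. Their part in the Cyp1b1 result was not tested.

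Within +/+, 0 of 17 members passed in limma, against 0.0576% of all genes. There 6 members had an unadjusted p under 0.05, against 11.8% of all genes. Voom on the recovered reads also called 0 members and 0 genes, with 6 members and 1914 of the 15627 genes at an unadjusted p under 0.05. In limma, 9 members had an unadjusted p under 0.05 over both genotypes, against 39% of all genes. Within GFP/GFP there were 8, against 35.6%. The 4 P1.5 libraries were above the 4 E18.5 libraries for 2 members, Cyp1a1 and Cyp2b10, against 7.28% of all genes, and below them for 2, Cyp2e1 and Cyp2r1, against 13.7%. Cyp2r1, a vitamin D hydroxylase, had 30 to 97 reads at E18.5 and 2 to 17 at P1.5. The median log2 difference over both genotypes was 0.44 for the 17 members and -0.32 for all genes tested, and 12 members were higher at P1.5, against 37.3% of all genes. For Cyp2f2 the log2 difference was 0.77 (SE 0.30, limma adjusted p = 0.104).

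**Figure D2:**
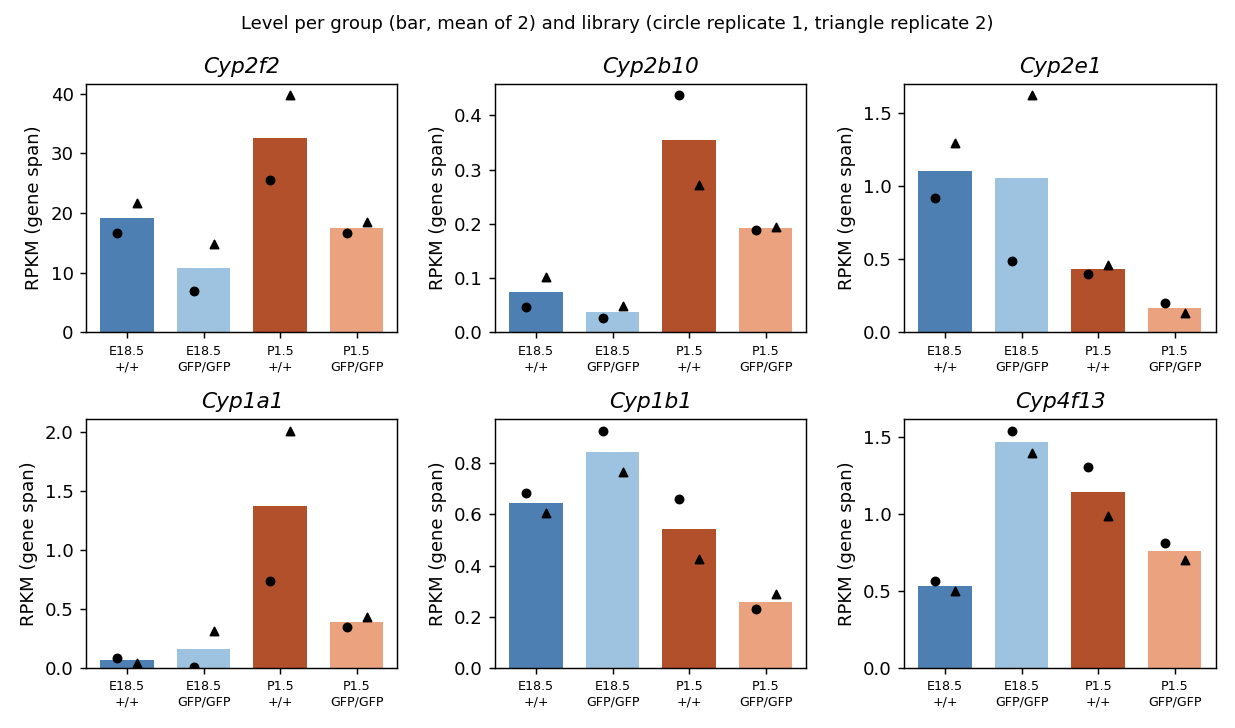
RPKM per kilobase of gene span for Cyp2f2, Cyp2b10, Cyp2e1, Cyp1a1, Cyp1b1 and Cyp4f13, with bars for the mean of each group of 2 and points for the libraries. Each vertical axis starts at 0 and has its own scale, and Cyp2b10 and Cyp1a1 stand higher at P1.5 while Cyp2e1 stands lower.

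The second comparison asked whether loss of Wfdc2 went with a different level of the members at P1.5. Of the 17 tested members, 15 were lower in GFP/GFP, but 0 passed in limma, where 0.0128% of all genes passed. At an unadjusted p under 0.05 there were 5 members, against 10.9% of all genes. Voom called 0 members and 0 genes, with 3 members and 1668 of the 15627 genes at an unadjusted p under 0.05.

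The GFP/GFP libraries lay wholly below the +/+ libraries for 13 members, against 26.9% of all genes, and wholly above for 2, against 12.6%. The median log2 difference of the members was -0.81, and that of all genes tested was -0.20, with 61.2% of genes lower. With median centring or quantile normalization 13 of the 17 members were lower, with medians of -0.61 and -0.50. Median centring moved single libraries by -0.48 to 0.51 on the log2 scale. By group mean, markers of some other cells stood lower in the same comparison, with all 5 fibroblast markers (median log2 difference -0.92), all 5 tested hepatocyte markers (-3.51) and all 4 ciliated cell markers (-0.45) lower in GFP/GFP. Fibroblast markers summed to 809 and 4591 RPM in +/+ and 907 and 1306 in GFP/GFP, so these sums overlapped. Ciliated cell sums, 860 and 319 against 439 and 317 RPM, overlapped as well. Hepatocyte sums were 8.84 and 98.4 RPM in +/+, the higher in replicate 2, and 2.98 and 3.11 in GFP/GFP. The 6 club cell markers were split, 3 higher and 3 lower (median 0.04), while 5 of 6 alveolar type II markers were higher (0.49) and none of the 5 endothelial markers was lower. None of these markers passed in limma, and their part in the lower level of the members was not tested.

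Among these members, Cyp2d22 had a log2 difference of -1.20 (SE 0.39, limma adjusted p = 0.347). For Cyp2s1 it was -1.10 (SE 0.39, limma adjusted p = 0.368). Cyp2e1 had -1.40 (SE 0.58) and Cyp1b1 -1.05 (SE 0.38). The most abundant member, Cyp2f2, had -0.86 (SE 0.42, limma adjusted p = 0.510, 95% interval -1.85 to 0.12).

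The 2 members above were of family 4. Cyp4f18, which hydroxylates leukotriene B4 in neutrophils, had 130 and 74 reads in P1.5 +/+ and 310 and 409 in P1.5 GFP/GFP, and 234, 191, 79 and 219 in the E18.5 libraries in the order +/+ then GFP/GFP. The log2 difference at P1.5 was 1.52 (SE 0.60, limma adjusted p = 0.428). Over the same P1.5 libraries, 8 neutrophil markers summed to 1808 and 555 RPM in +/+ and 1329 and 849 in GFP/GFP. Their part in the Cyp4f18 difference was not tested. The span of Cyp4f18 overlaps Zfp961 on the opposite strand by 4927 bases, and whether the counting used strand is not given in the sources used here. Cyp4v3, a fatty acid hydroxylase, had 0.505 and 0.384 RPKM in P1.5 +/+ and 0.624 and 0.563 in P1.5 GFP/GFP, a log2 difference of 0.43 (SE 0.48, limma adjusted p = 0.788), after 0.344 and 0.462 in E18.5 +/+ and 0.149 and 0.343 in E18.5 GFP/GFP.

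The third comparison was that of genotype before birth. At E18.5, 0 of 17 members passed in limma, against 0.0192% of all genes. There were 2 members at an unadjusted p under 0.05, against 4.37% of all genes. Voom called 0 members and 0 genes, with 3 members and 712 of the 15627 genes at an unadjusted p under 0.05. Members stood on both sides, with 8 higher and 9 lower in GFP/GFP, where 59.2% of all genes were higher. Both GFP/GFP libraries were above both +/+ libraries for 5 members (Cyp1b1, Cyp2d22, Cyp2j9, Cyp4f13 and Cyp4f17), against 26.5% of all genes, and below for 3 (Cyp2f2, Cyp2j6 and Cyp4v3), against 9.46%. Without replicate 1 of E18.5 GFP/GFP, 11 members were higher and 6 lower.

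Cyp4f13, a fatty acid hydroxylase of the Cyp4f group on chromosome 17, had the lowest unadjusted p of the 17 members at E18.5. It had 443 and 353 reads in E18.5 +/+, 1301 and 929 in E18.5 GFP/GFP, 643 and 435 in P1.5 +/+, and 427 and 465 in P1.5 GFP/GFP. In RPKM the 2 E18.5 GFP/GFP libraries were the highest of the 8. The log2 difference at E18.5 was 1.47 (SE 0.33, unadjusted p = 0.00222 in limma, adjusted p = 0.459). Cyp4f17, of the same group and also on chromosome 17, had 127 and 91 reads in E18.5 +/+ but 523 and 174 in E18.5 GFP/GFP, with the high value in the library that stood apart, and 39, 110, 31 and 40 at P1.5. Cyp4f16 of the same group, with 23.7% of its 36-base words shared and most of those with Cyp4f37, had 0.718 and 0.914 RPKM in E18.5 +/+, 0.809 and 1.07 in E18.5 GFP/GFP, 1.26 and 1.38 in P1.5 +/+, and 0.977 and 1.14 in P1.5 GFP/GFP, and its groups at E18.5 overlapped.

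For Cyp2f2 the log2 difference at E18.5 was -0.91 (SE 0.42, limma adjusted p of 1). Without replicate 1 of E18.5 GFP/GFP, the library with low club cell, alveolar and ciliated cell markers, it was -0.35. The part of the club cell markers in this difference was not tested. Scgb1a1, the secretoglobin that defines club cells, had 21890 and 29018 reads in E18.5 +/+ and 1571 and 17832 in E18.5 GFP/GFP. At P1.5 the club cell markers summed to 21890 and 9320 RPM in +/+ and to 13440 and 11410 in GFP/GFP. Both GFP/GFP libraries lay below both +/+ libraries for Cyp2f2 there, as for 26.9% of all genes tested. The part of the club cell markers at P1.5 was not tested either.

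The genotype difference at P1.5 was also compared with that at E18.5. The interaction passed in limma for 0 of 17 members and for 0% of all genes, and 5 members and 10.2% of all genes had an unadjusted p under 0.05. Voom also called 0 members and 0 genes. These 5 were Cyp4f13 (log2 value -2.05, SE 0.46), Cyp2d22 (-2.24, SE 0.55), Cyp4f17 (-2.71, SE 0.93), Cyp1b1 (-1.43, SE 0.54) and Cyp4f18 (2.21, SE 0.86), the first 4 lower and the last higher in P1.5 GFP/GFP than the E18.5 difference would give. Their adjusted p ran from 0.222 to 0.436 in limma.

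**Figure D3:**
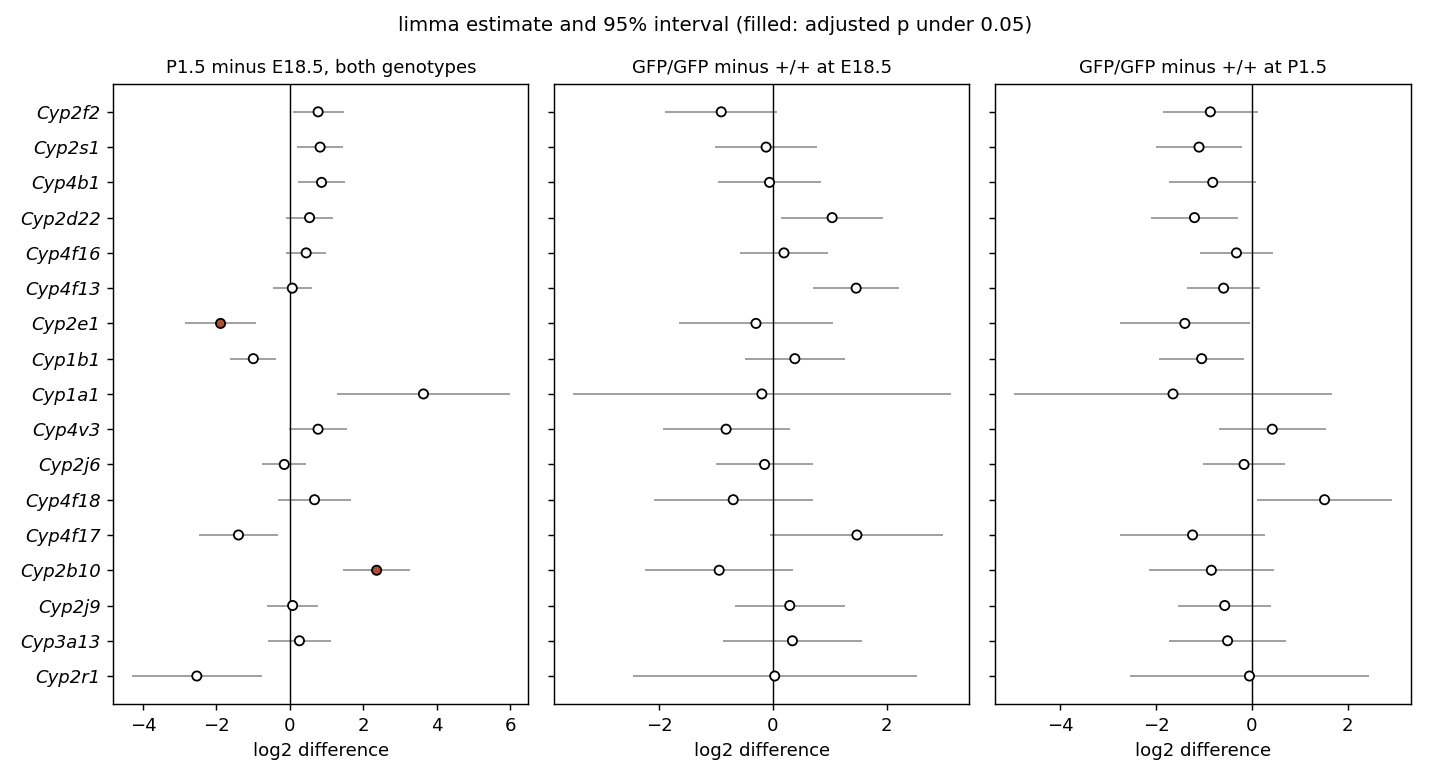
Log2 differences of the 17 tested members with 95% intervals from limma, for stage over both genotypes (left), genotype at E18.5 (middle) and genotype at P1.5 (right), with filled points for an adjusted p under 0.05. Cyp2b10 and Cyp2e1 are the filled points, both in the stage panel, and 15 of 17 points in the right panel lie left of 0.

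The remaining tested members had lower levels. Cyp2j6 and Cyp2j9, epoxygenases of arachidonic acid, ranged over libraries from 0.344 to 0.510 and from 0.129 to 0.240 RPKM. Cyp3a13, the only family 3 gene tested, ranged from 0.0649 to 0.170 RPKM, or 58 to 152 reads. Of the 5 members under the level for testing but above 10 mean reads, Cyp2c44, an epoxygenase, had 43 to 65 reads at E18.5 and 2 to 32 at P1.5. With a filter of 10 mean reads, under which it was tested, it fell from E18.5 to P1.5 over both genotypes (log2 difference -2.29, limma adjusted p = 0.0388) and within GFP/GFP (-3.68, adjusted p = 0.0353). Cyp4f15 had 0 to 7 at E18.5 and 1 to 35 at P1.5. The other 3, Cyp2u1, Cyp2ab1 and Cyp4f39, had 0 to 29 reads in a library.

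The 55 low-read members included 14 of the 15 Cyp2c genes, 7 of the 8 Cyp2d genes, 8 of the 9 Cyp3a genes and all 6 Cyp4a genes, groups best known from liver. Of all 77 members, 39 had no more than 3 reads in any library, and 19 of these had 0 reads in all 8. Cyp2a5, a coumarin hydroxylase, had 0 to 7 reads at E18.5 and 6 to 16 at P1.5. With no filter it rose over both genotypes (log2 difference 3.12, limma adjusted p = 0.0398) and within GFP/GFP (4.32, adjusted p = 0.0476), values that depend on the 0.9 read entered for a count of 0. Near-identical copies limit some of these counts, since 99.6% of the 36-base words of Cyp3a41a and 95.1% of those of Cyp3a41b occur in another gene, and 49.7% of those of Cyp2a5 do.

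The low-read members summed to 20 to 66 reads in every library but one. In replicate 2 of P1.5 +/+ they summed to 92 reads, or 4.73 RPM against 0.642 to 1.77 elsewhere, and 25 of the 55 had reads there against 6 to 12 elsewhere. Cyp2d26 had 16 reads in that library and Cyp4a14 had 12, against 0 to 6 and 0 to 1 in the others, and Cyp2c69, Cyp3a11 and Cyp2c37 had 5, 4 and 4 reads there and 0 in the other 7. The same library held 1030 reads of Alb, the albumin gene, against 8 to 55 elsewhere, and 523 reads of Ahsg against 0 to 26. The part of hepatocyte RNA in these reads was not tested.

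**Figure D4:**
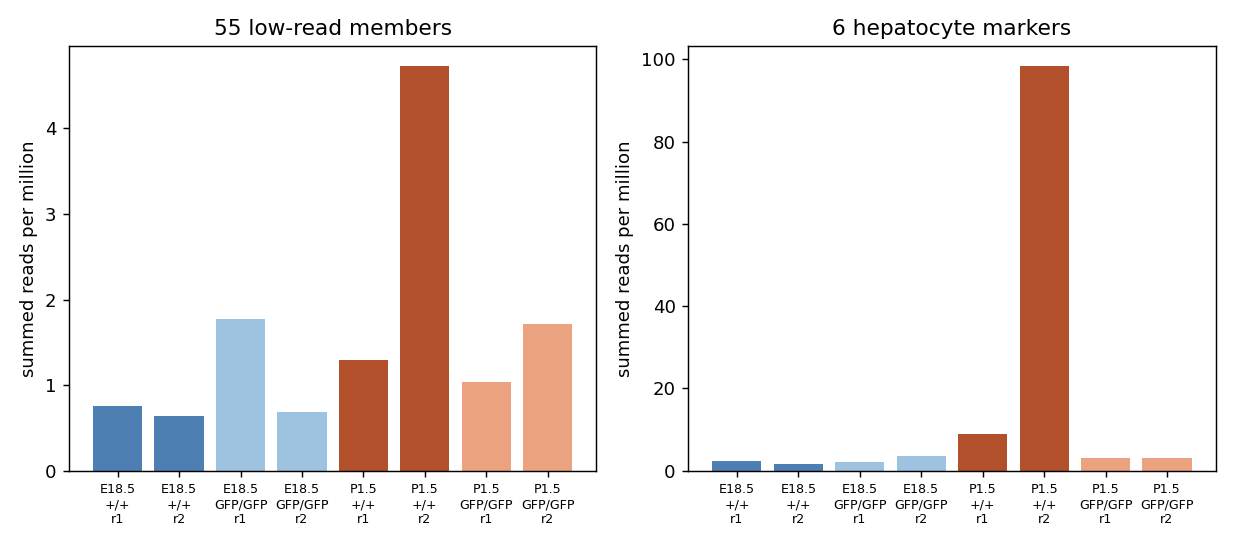
Summed RPM of the 55 low-read members (left) and of 6 hepatocyte markers (right) in the 8 libraries, r1 and r2 being replicates 1 and 2. Replicate 2 of P1.5 +/+ is the highest bar in both panels, at 4.73 and 98.4 RPM.

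Genes that work with the P450 enzymes were compared as well. Of 5 redox partners tested, among them the electron donor Por, 0 passed in limma in the stage comparison over both genotypes. Of 8 heme synthesis genes 1 passed, Cpox, which fell (log2 difference -1.68). Of 5 tested regulators of P450 transcription 0 passed, and all 5 were lower at P1.5, with a median of -0.31 against -0.32 for all genes. Of 16 other xenobiotic and epoxide enzymes 3 passed: the aldehyde dehydrogenase Aldh1a1 (1.59) and the glutathione transferase Gsta3 (1.66) rose and the flavin monooxygenase Fmo2 (-1.96) fell. Of 8 P450 genes of other families 0 passed.

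Cell type markers moved with stage as well. In the same test 2 of 6 club cell markers rose, Scgb1a1 (4.29) and Bpifa1 (4.63), with 0 falling. Of 4 ciliated cell markers Tppp3 rose (2.1) and Ccdc39 fell (-2.39). Among 8 neutrophil markers 5 rose, among 4 macrophage markers Marco rose (3.41), and among 5 fibroblast markers Pdgfra fell (-1.57). Of 5 tested hepatocyte markers 2 rose, Apoa1 (4.46) and Apoa2 (1.69). None of the 6 alveolar type II, 4 alveolar type I and 5 endothelial markers and the 1 adipocyte marker tested passed. In the comparisons of genotype at E18.5 and at P1.5, 0 genes of any of these lists passed in limma.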

How the data were processed

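Total lung RNA was sequenced from 8 libraries, 2 for each stage and genotype. The methods of the study name an Illumina HiSeq or GAIIx as the instrument. They do not say which libraries each one read, so whether the instrument differed between stages is not given there. The authors cut reads to 36 bases, trimmed them with Trim Galore 0.4.0, mapped them to mm10 with TopHat2 2.1.1 and deposited log2 RPKM from SeqMonk, per the labels and the methods of the study. Tested on the values, length is the whole gene span, and 0 reads were stored as 0.9 read. Whole reads were recovered from the steps of the values, within 0.02 of a whole number for 99.86% to 99.96% of values with reads, and totals were 19457647 to 37209333.

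The 15627 genes averaging 0.05 RPKM or more were fitted on the deposited log2 values with limma 3.58.1 (R 4.3.3), using a mean for each group, a trended prior, two-sided tests and Benjamini-Hochberg adjustment over all genes at 0.05. The fit was run on simulated counts that held no library standing apart, so that run does not show how such libraries affect the calls. With 2 libraries on each side, the smallest p of an exact permutation test is 0.33. P-values rest on the spread between the animals of a group, which also differ in sex, moderated by the trended prior. Alternatives were pseudocounts, filters, scalings, priors, the replicate block, voom and each library left out. Other steps used Python 3.11.15, pandas 2.3.3 and matplotlib 3.10.9. GENCODE M21 gave exon lengths and transcripts, with 76 of 77 members matched by symbol. Named with every value were Cyp2f2, members that passed a test and the 10 with the highest mean RPKM; Cyp2r1, Cyp4f17, Cyp4f18 and low-read genes named singly were chosen after their values were seen. The members and lists were chosen with earlier results of these data known.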

Additional observations from a re-analysis of the deposited data

How the results depend on the processing

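Counts of members called for genotype at either stage and for the interaction stayed at 0 under each alternative run. For stage over both genotypes (2 called) the count was 1 with log2(RPKM + 1), a mean of at least 0.5 RPKM, voom, the replicate block or an untrended prior, 3 with a pseudocount of 0.1 (Cyp1a1 added) or median centring (Cyp1a1 and Cyp4b1 added and Cyp2e1 lost), 2 with quantile normalization (Cyp1a1 in place of Cyp2e1) or no filter (Cyp2a5 in place of Cyp2e1), 4 with a mean of at least 10 reads (Cyp1a1 and Cyp2c44 added), 8 at an adjusted p under 0.1, and 0 to 6 with each library left out (6 without replicate 2 of E18.5 GFP/GFP, 5 without replicate 2 of P1.5 +/+, and 0 without either E18.5 +/+ library, either P1.5 GFP/GFP library or replicate 1 of E18.5 GFP/GFP). Within +/+ (0 called) it was 0 to 4 with a library left out, the 4 without replicate 2 of P1.5 +/+. Within GFP/GFP (1 called) it was 0 with either pseudocount, voom, the replicate block, an untrended or a robust prior, 2 with median centring, 4 with only the 4 libraries compared, 5 with a mean of at least 10 reads, 7 at an adjusted p under 0.1, and 0 to 6 with a library left out (5 or 6 without either P1.5 +/+ library, 6 without replicate 2 of E18.5 GFP/GFP, and 0 without any of the other 5). With a mean of at least 0.5 RPKM, 8 members were tested at P1.5 and all 8 were lower in GFP/GFP. Of all 15627 genes, 803 passed for stage over both genotypes, against 685 with voom and 287 with the replicate block. Within +/+ these counts were 9, 0 and 0, and within GFP/GFP 711, 129 and 125. All-gene counts under the other alternatives are not given here, so their member counts are not read as results about the members.

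Cyp1b1 within GFP/GFP no longer passed at log2 differences of -1.40 (pseudocount 0.1), -0.55 (pseudocount 1), -1.71 (no filter, a mean of at least 0.5 RPKM, the replicate block, either other prior), -1.04 (median centring), -0.92 (quantile normalization) and -1.70 (voom), and ranged from -1.88 to -1.55 with a library left out. Cyp2e1 over both genotypes no longer passed at -0.65 (pseudocount 1), -1.89 (no filter, the replicate block, an untrended prior), -1.42 (median centring), -1.37 (quantile normalization) and -1.86 (voom), and ranged from -2.32 to -1.45 with a library left out. Cyp2b10 over both genotypes still passed with either pseudocount, but its log2 difference shrank to 1.23 (pseudocount 0.1) and 0.27 (pseudocount 1). With a library left out Cyp2b10 ranged from 2.08 to 2.64 and Cyp2f2 from 0.49 to 1.05. The Cyp2f2 interaction (0.04) was -0.0209 with quantile normalization and -0.51 to 0.59 with a library left out. Causes were not tested. Same-numbered libraries deviated together within stage (r = 0.23 at E18.5 and 0.21 at P1.5 across genes) but not across stages (-0.017 and -0.0068), and the number coincided with sex in each group. The labels do not say that it marks a litter, so the block stayed an alternative, which ended the stage calls of Cyp2e1 and of Cyp1b1 within GFP/GFP and kept that of Cyp2b10 (adjusted p = 0.0491). In these stage comparisons the block was a shift shared by both stages, although same-numbered libraries did not deviate together across stages. For genotype and the interaction it was a separate shift for each stage. Genes under 10 mean reads are limited by depth.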
